A study of Mus musculus with 6 samples.

Results

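The sarcomere is the contractile unit of striated muscle, in which myosin thick filaments pull on actin thin filaments between Z-discs. Excitation-contraction coupling is the chain from the surface voltage sensor to the ryanodine receptor of the sarcoplasmic reticulum, whose calcium binds troponin and releases the thin filament from inhibition. A list of 58 genes of this machinery was read out of RNA-seq of mouse medulloblastoma, a malignant tumour of the cerebellum, by exact match of gene symbol among 52550 genes. All 58 symbols were found, and each gene was given the sum of its transcripts' estimated counts and TPM (a measure scaled by transcript length and library total). Many of these proteins come in families whose genes are used by fast skeletal, slow skeletal or cardiac muscle, and the embryonic skeletal muscle fibre uses several cardiac genes before birth. Tumours of the cerebellum are not muscle, although medulloblastomas with muscle differentiation are known as a rare histological form.

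The comparison was between 3 Eed mutant tumours and 3 tumours with wild-type Eed. The Eed protein belongs to the core of the Polycomb repressive complex PRC2, which methylates histone H3 at developmental genes and is associated with their repression. The sources used here do not give the mutant allele, the tumour model, the age of the animals or whether each tumour came from its own animal. The p-values therefore cover the variation among these 6 samples and nothing wider, and part of it may be technical. Libraries held 26186236 to 26425111 estimated counts, with 4.94% to 5.47% of counts from mitochondrial genes, and no pair of libraries agreed within sampling noise. Values given as 3 numbers stand in the order of replicates 1, 2 and 3, and CPM is a count scaled to a common library size with TMM (trimmed mean of M-values) factors.

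Eed itself had 32.6, 36.8 and 30.7 CPM in the mutants, against 43.8, 30.1 and 35.6 CPM in wild type. The groups overlapped, and its log2 fold change, mutant minus wild type, was -0.13 (SE 0.144, adjusted p = 0.656 in edgeR and 0.726 in DESeq2). Because the allele is not known, this level does not check the labels. The samples include no other tissue, so the labelled tumour type could not be checked. The levels of 10 markers of cerebellar granule cell progenitors are given as a description. Their summed level was 2146, 2516 and 2218 TPM in the mutants, against 2189, 2500 and 2282 TPM in wild type, and Zic1, a granule lineage transcription factor, had 1211, 1536 and 1304 CPM in the mutants, against 1471, 1832 and 1435 CPM in wild type. DESeq2 called 3 of the 10 higher in the mutants and 0 lower, against 3.15% and 2.48% of all genes. Every mutant lay above every wild-type library in 4 of the 10, against 13.1% of the tested genes.

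Many muscle genes of this list were higher in the Eed mutant tumours than in wild type, and none of the list was called lower. Those that rose were 10 of 16 thin filament genes, 8 of 13 thick filament genes and 4 of 5 assembly and energy genes. Fewer rose at the Z-disc and intermediate filament (2 of 11), in calcium handling (3 of 9) and at the membrane (0 of 4). The edgeR quasi-likelihood test with Benjamini-Hochberg adjustment called 0 of the members at 0.05, as it called 0 of all 19145 genes tested in either direction. The lowest adjusted p among the members was 0.107, and 35 members had an unadjusted edgeR p under 0.05 on the higher side, against 9.29% of all tested genes, and 0 on the lower side, against 8.78%. DESeq2, run on the same rounded counts, called 27 members higher and 0 lower, against 3.15% of all genes called higher and 2.48% called lower. It gave 39 members an adjusted p, of which 12 were not called, while limma-voom and limma-trend called 0 members. Members called by DESeq2 are described here as having risen, although DESeq2 was the less strict of both tests on simulated counts, and their adjusted p in edgeR lay between 0.107 and 0.198.

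In 44 of the 58 members every mutant library lay above every wild-type library, and in 0 did every mutant lie below. The same held on the higher side for 13.1% of the tested genes and for 9.12% of all genes with counts, and on the lower side for 11.9% of the tested genes. For Myl2, Myl3 and Tnni3 the closest mutant and wild-type libraries had equal counts, so library scaling alone set their groups apart. Of the 58, 47 had enough counts for the edgeR fit, and 15 of these passed the expression filter through the mutant libraries alone, so that a count over the tested members favours higher values in the mutants. The 31 members that clear the filter in wild type alone give a reading without that choice. DESeq2 called 17 of these 31 higher and 0 lower, and their median log2 fold change was 1.08. A tumour piece is a mixture of cells, and more cells of one type cannot be told apart from more RNA per cell in such samples.

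**Figure D1:**
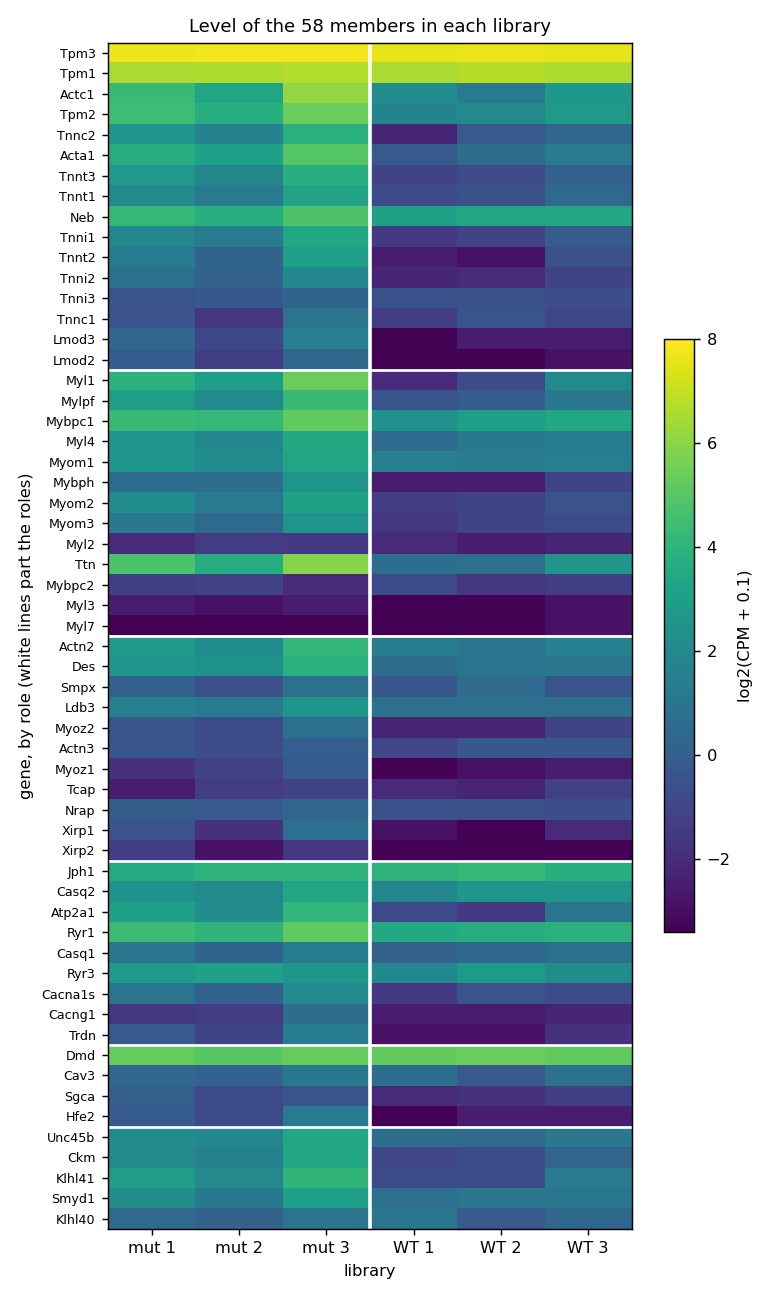
Level of each of the 58 members in each library, as log2(CPM + 0.1) on the colour scale, with mutants at left and wild type at right and white lines between the roles. Mutant replicate 3 is the brightest column for most rows, while Tpm3, Tpm1, Dmd and Jph1 have nearly the same colour across all 6 libraries.

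The mutant libraries did not carry these genes equally. Among the 47 tested members, mutant replicate 3 was the highest mutant library in 44 and mutant replicate 2 the lowest in 41. Wild-type replicate 3 was the highest wild-type library in 32 and wild-type replicate 1 the lowest in 32. The median ratio of mutant replicate 3 to mutant replicate 2 was 3.53 over the tested members and 1.00 over all tested genes. Mutant replicate 3 thus stood apart from the other mutants for these genes. Without mutant replicate 3, DESeq2 kept 18 of the 27 calls, lost 9 and added 0. Without mutant replicate 1 it kept 16, lost 11 and added 4 (Lmod2, Lmod3, Hfe2 and Trdn), and without mutant replicate 2 it kept 27 and added 4 (Lmod3, Hfe2, Ldb3 and Trdn). Leaving out wild-type replicate 1 kept 20 calls and lost 6, and Tnni2 was given no adjusted p. Leaving out wild-type replicate 2 kept 17, lost 10 and added 4 (Ryr3, Lmod3, Hfe2 and Trdn). Leaving out wild-type replicate 3 kept 26, lost 1 (Smyd1) and added 1 (Myl1). The 11 members called whichever library was left out were Acta1, Ckm, Des, Mybph, Myom2, Myom3, Tnni1, Tnnt1, Tnnt3, Tpm2 and Unc45b.

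The names of the deposited files include a code that the sources used here do not explain. Mutant replicate 3 and wild-type replicate 3 share a code, and of the 47 tested members 47 were higher in mutant replicate 3, against 49.1% of all tested genes. Mutant replicates 1 and 2 share another code with wild-type replicate 2, and both mutants lay above that library in 38 of the 47 members, against 41.2% of all tested genes. Of the 47, 15 passed the expression filter through the mutant libraries alone, so both counts favour higher values in the mutants. All 27 members called by DESeq2 were higher in the mutants within both codes. This was fixed in advance, since in each of the 27 every mutant lay above every wild-type library.

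Promoters are shown for the troponin I genes with an entry and for the 5 genes that led the list by mean TPM in the mutants (Tpm3, Tpm1, Myl1, Actc1 and Mylpf). These are RefSeq windows on GRCm38.p6, from 250 bases before to 50 bases after the transcription start, written 5′ to 3′ on the strand of the gene. Capitals mark matches, on either strand, to the E-box CANNTG (the general site of bHLH factors such as Myod1), the CArG box (the site of serum response factor) or the MEF2 site. Tnni1 has 2 overlapping windows, of which the first is shown, and both windows of Tpm3 are shown.
Tnni1, chr1:135799171-135799470, plus strand: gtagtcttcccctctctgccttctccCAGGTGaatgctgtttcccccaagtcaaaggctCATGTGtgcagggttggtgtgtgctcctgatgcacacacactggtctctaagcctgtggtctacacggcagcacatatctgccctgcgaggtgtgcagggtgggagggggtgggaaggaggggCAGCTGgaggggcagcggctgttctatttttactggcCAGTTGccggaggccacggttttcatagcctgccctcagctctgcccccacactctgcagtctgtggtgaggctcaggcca
Tnni3, chr7:4522479-4522778, minus strand: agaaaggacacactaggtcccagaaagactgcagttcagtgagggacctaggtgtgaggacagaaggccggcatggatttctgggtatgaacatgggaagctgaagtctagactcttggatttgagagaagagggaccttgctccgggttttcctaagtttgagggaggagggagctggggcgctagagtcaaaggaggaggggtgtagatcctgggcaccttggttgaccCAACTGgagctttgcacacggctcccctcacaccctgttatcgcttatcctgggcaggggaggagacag
Myl1, chr1:66945007-66945306, minus strand: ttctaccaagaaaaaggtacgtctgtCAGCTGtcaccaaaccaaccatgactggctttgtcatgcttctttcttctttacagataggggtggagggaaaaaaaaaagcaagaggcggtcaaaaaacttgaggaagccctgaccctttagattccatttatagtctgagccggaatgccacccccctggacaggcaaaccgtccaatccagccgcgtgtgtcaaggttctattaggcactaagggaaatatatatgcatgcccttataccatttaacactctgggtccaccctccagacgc
Actc1, chr2:114052826-114053125, minus strand: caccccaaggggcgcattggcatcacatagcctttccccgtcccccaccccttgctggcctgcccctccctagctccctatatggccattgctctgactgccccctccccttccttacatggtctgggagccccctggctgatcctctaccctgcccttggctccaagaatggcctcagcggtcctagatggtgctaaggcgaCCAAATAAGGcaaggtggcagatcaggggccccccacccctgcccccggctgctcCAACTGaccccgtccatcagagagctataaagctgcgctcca
Mylpf, chr7:127211358-127211657, plus strand: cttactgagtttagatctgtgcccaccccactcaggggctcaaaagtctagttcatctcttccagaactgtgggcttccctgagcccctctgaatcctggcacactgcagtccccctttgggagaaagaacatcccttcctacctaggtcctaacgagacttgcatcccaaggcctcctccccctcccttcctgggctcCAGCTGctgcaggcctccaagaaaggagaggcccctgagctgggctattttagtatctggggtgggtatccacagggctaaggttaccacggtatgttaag
Tpm3, chr3:90072401-90072700, plus strand: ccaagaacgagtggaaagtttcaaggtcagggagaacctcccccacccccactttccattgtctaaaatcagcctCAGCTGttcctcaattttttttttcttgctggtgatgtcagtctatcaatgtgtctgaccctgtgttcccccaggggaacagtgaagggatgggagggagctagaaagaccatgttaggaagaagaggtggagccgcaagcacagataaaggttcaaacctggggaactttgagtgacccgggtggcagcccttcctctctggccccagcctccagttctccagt
Tpm3, chr3:90079271-90079570, plus strand: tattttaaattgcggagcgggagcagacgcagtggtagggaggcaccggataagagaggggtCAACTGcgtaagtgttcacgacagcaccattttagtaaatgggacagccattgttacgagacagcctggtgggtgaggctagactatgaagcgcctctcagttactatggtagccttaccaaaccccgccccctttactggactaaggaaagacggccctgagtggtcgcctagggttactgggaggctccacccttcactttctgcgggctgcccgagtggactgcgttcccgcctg
Tpm1, chr9:67049164-67049463, minus strand: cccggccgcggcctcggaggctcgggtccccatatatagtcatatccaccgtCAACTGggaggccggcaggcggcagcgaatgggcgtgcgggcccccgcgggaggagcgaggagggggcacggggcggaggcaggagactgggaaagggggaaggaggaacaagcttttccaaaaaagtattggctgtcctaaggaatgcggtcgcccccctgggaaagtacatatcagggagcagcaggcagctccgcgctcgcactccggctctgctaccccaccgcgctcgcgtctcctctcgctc
The windows of Tnni1, Myl1 and Mylpf and the first window of Tpm3 hold the E-box form CAGCTG, and that of Actc1 holds a CArG box. The windows of Tnni3 and Tpm1 and the second of Tpm3 each hold a single E-box of another form.

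Of the members, 44 had such an entry, with 50 windows in all. CANNTG was found in 86.0% of the member windows and in 72.3% of all 32851 windows of this length. Its form CAGCTG was found in 46.0% of member windows and in 16.3% of all windows. A CArG box was found in 16.0% of member windows and in 1.6% of all, and a MEF2 site in 14.0% of member windows and 3.2% of all. TATAAA, which can overlap a MEF2 site, was found in 16.0% of member windows and 13.6% of all. Among members with a window, CAGCTG was present in 12 of the 23 that DESeq2 called and in 9 of the other 21. A match says only that the letters are there, and no binding was measured.

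Among the thin filament genes, 10 of 16 rose, and 14 had every mutant above every wild-type library. Sarcomeric actin came from both of its genes. Acta1 (ENSMUSG00000031972.5, chromosome 8, 123891769 to 123894751, minus strand in GENCODE M21 on GRCm38), the skeletal alpha actin, had 12.5, 8.61 and 31.9 CPM in the mutants, against 0.793, 1.48 and 2.36 CPM in wild type. Each mutant was above each wild-type tumour, and mutant replicate 3 was the highest. The log2 change came to 3.51 (SE 0.601, adjusted p = 0.13 in edgeR and 9.54e-05 in DESeq2), and it was 2.77 without mutant replicate 3. Actc1 (ENSMUSG00000068614.7, chromosome 2, 114047282 to 114053548, minus strand), the cardiac alpha actin that fetal skeletal muscle also uses, had 20.1, 9.99 and 71.9 CPM in the mutants, against 4.304, 2.31 and 6.31 CPM in wild type. The groups again did not overlap, with mutant replicate 2 the lowest of the mutants and mutant replicate 3 far above it. Actc1 rose by 2.98 (SE 0.760, adjusted p = 0.155 in edgeR and 0.0202 in DESeq2), or 1.80 without mutant replicate 3, and its DESeq2 call was lost without mutant replicate 1, wild-type replicate 1 or wild-type replicate 2. Actc1 made up 61.3%, 52.6% and 69.4% of the summed TPM of the pair in the mutants, against 84.9%, 65.4% and 70.9% in wild type, so its share overlapped between the groups. The coding sequences of the muscle actins are nearly identical, so the division of reads between Acta1, Actc1 and the smooth muscle actin Acta2 is uncertain. Gm20388, a gene on the opposite strand that overlaps Acta1, averaged 86.5 CPM in the mutants and 57.7 CPM in wild type, and the sources used here do not say whether reads were counted by strand. Of the 58 members, 28 overlap a gene on the opposite strand. The overlap was read on whole gene bodies, not exons, and some of the overlapping genes, such as Tsga8 over Dmd, averaged 0 CPM in both groups. Values of the 28 can be uncertain where the other gene is expressed and shares exon sequence, and how many are affected was not determined.

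Troponin T anchors the troponin complex to tropomyosin, and all 3 of its genes rose. The fast skeletal gene Tnnt3 (ENSMUSG00000061723.18, chromosome 7, 142498836 to 142516009, plus strand) had 6.53, 3.46 and 13.5 CPM in the mutants, against 0.378, 0.492 and 0.989 CPM in wild type. The slow skeletal gene Tnnt1 (ENSMUSG00000064179.13, chromosome 7, 4504570 to 4516382, minus strand) had 3.84, 2.38 and 9.34 CPM in the mutants, against 0.453, 0.568 and 1.33 CPM in wild type. The cardiac gene Tnnt2 (ENSMUSG00000026414.13, chromosome 1, 135836354 to 135852260, plus strand), which embryonic skeletal muscle also expresses, had 2.34, 1.08 and 8.36 CPM in the mutants, against 0.0755, 0.0379 and 0.5703 CPM in wild type. Mutants lay above wild type without overlap in all 3 genes. Tnnt3 rose by 3.65 (SE 0.598, adjusted p = 0.121 in edgeR and 2.63e-09 in DESeq2), the lowest DESeq2 adjusted p among the members. For Tnnt1 the log2 change came to 2.72 (SE 0.619, adjusted p = 0.149 in edgeR and 0.000146 in DESeq2). The rise of Tnnt2 was 4.08 (SE 1.05, adjusted p = 0.155 in edgeR and 0.0344 in DESeq2). Its wild-type value rests on 18 counts, of which 15 were in wild-type replicate 3. Without mutant replicate 3 the log2 fold changes were 3.00 for Tnnt3, 1.98 for Tnnt1 and 2.88 for Tnnt2. Leaving out wild-type replicate 3 gave 4.16 for Tnnt3, 3.33 for Tnnt1 and 5.999 for Tnnt2. The Tnnt2 call held without mutant replicate 2 or wild-type replicate 3 and was lost without any of the other 4 libraries. Prr33 overlaps Tnnt3 on the opposite strand and averaged 8.13 CPM in the mutants and 2.44 CPM in wild type.

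Troponin I is the inhibitory subunit, and 2 of its 3 genes rose. Tnni2 (ENSMUSG00000031097.15, chromosome 7, 142441808 to 142444410, plus strand), the fast form, had 1.65, 1.04 and 3.74 CPM in the mutants, against 0.113, 0.151 and 0.3802 CPM in wild type. Tnni1 (ENSMUSG00000026418.16, chromosome 1, 135779434 to 135810989, plus strand), the slow form and the one that dominates in embryonic muscle, had 3.53, 2.27 and 10.3 CPM in the mutants, against 0.264, 0.379 and 0.837 CPM in wild type. Tnni3 (ENSMUSG00000035458.15, chromosome 7, 4518305 to 4524229, minus strand), the adult cardiac form, had 0.614, 0.7299 and 1.096 CPM in the mutants, against 0.604, 0.568 and 0.532 CPM in wild type. The fast and slow genes were several-fold apart between groups, while the cardiac gene was nearly level. Tnni3 had 16 counts in mutant replicate 1 and 16 in wild-type replicate 1, so library scaling alone set its groups apart in CPM. In TPM its groups overlapped, with mutant replicate 1, at 1.82, below every wild-type library. Tnni2 rose by 3.29 (SE 0.643, adjusted p = 0.134 in edgeR and 0.000111 in DESeq2) and Tnni1 by 3.44 (SE 0.698, adjusted p = 0.142 in edgeR and 5.28e-06 in DESeq2). Tnni3 had a log2 fold change of 0.52 (SE 0.293, adjusted p = 0.387 in edgeR and none given by DESeq2). Without mutant replicate 3 the values were 2.62 for Tnni2, 2.54 for Tnni1 and 0.24 for Tnni3, and leaving out wild-type replicate 3 gave 3.97, 4.04 and 0.47. Without wild-type replicate 1 DESeq2 gave Tnni2 no adjusted p, and the log2 fold change was 2.99. As shares of troponin I TPM, Tnni3 was 13.6%, 24.6% and 11.7% in the mutants, against 59.2%, 63.6% and 42.0% in wild type, and Tnni1 was 46.7% ± 6.79 in the mutants and 27.8% ± 7.36 in wild type (SD, n = 3 each).

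Troponin C binds calcium. Tnnc2 (ENSMUSG00000017300.9, chromosome 2, 164777161 to 164779967, minus strand), the fast form, had 5.76, 3.04 and 14.03 CPM in the mutants, against 0.113, 0.757 and 1.25 CPM in wild type, and the groups did not overlap. It rose by 3.42 (SE 0.795, adjusted p = 0.149 in edgeR and 0.0199 in DESeq2), and the log2 fold change was 2.63 without mutant replicate 3 and 4.11 without wild-type replicate 3. The DESeq2 call was lost without mutant replicate 1 or wild-type replicate 2. Tnnc1 (ENSMUSG00000091898.8, chromosome 14, 31208312 to 31211729, plus strand), shared by slow skeletal and cardiac muscle, had 0.614, 0.231 and 1.81 CPM in the mutants, against 0.302, 0.644 and 0.418 CPM in wild type. Here mutant replicate 2 was below every wild-type library, and the log2 change came to 0.96 (SE 0.707, adjusted p = 0.5 in edgeR and none given by DESeq2), turning to -0.10 without mutant replicate 3. Tnnc2 accounted for 90.6% ± 2.30 in the mutants and 59.3% ± 14.4 in wild type of troponin C TPM (SD, n = 3 each). Both genes overlap an abundant gene on the opposite strand, Ube2c for Tnnc2 at 101 CPM in the mutants and 85.3 CPM in wild type, and Nisch for Tnnc1 at 459 CPM in the mutants and 484 CPM in wild type.

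Troponin T and I genes sit in pairs on the genome, and 2 of the 3 pairs join different muscle types. Tnni2 and Tnnt3, both fast, are 54425 bases apart on chromosome 7, and both rose. Tnni1, slow, and Tnnt2, cardiac, are 25364 bases apart on chromosome 1, and both rose. Tnni3, cardiac, and Tnnt1, slow, lie 1922 bases apart on chromosome 7, and of this pair Tnnt1 rose while Tnni3 was not called. The difference between the neighbours was not tested.

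**Figure D2:**
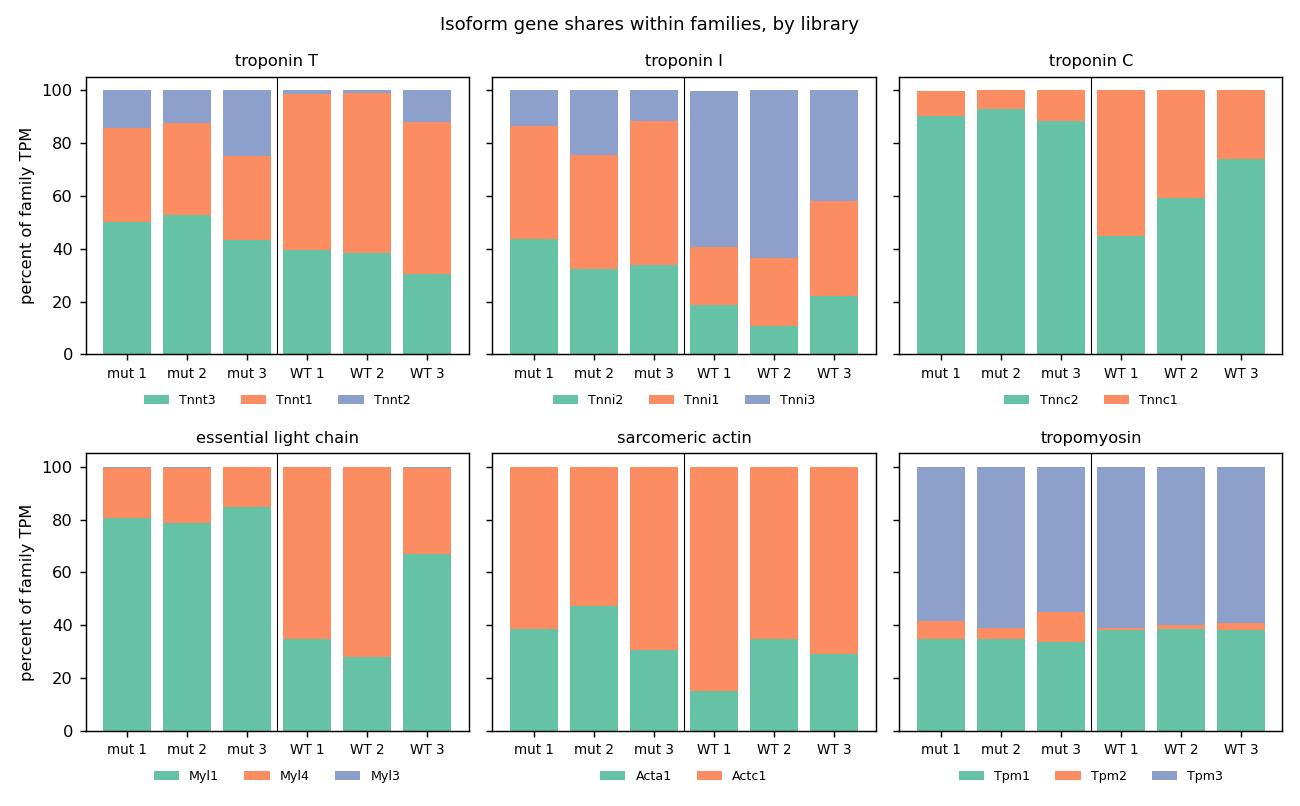
Share of each isoform gene in the summed TPM of its family, by library, with mutants at left of the black line and wild type at right. Tnni3 and Tnnc1 take a smaller share in each mutant than in each wild-type library, Tnnc2 and Myl1 a larger one, and tropomyosin stays dominated by Tpm3 and Tpm1.

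Tropomyosin lies along the thin filament and is made in most cells, with muscle and non-muscle products from the same genes. Tpm3 was the most abundant member in both groups, at 185 ± 7.94 TPM in the mutants and 172 ± 5.99 TPM in wild type (SD, n = 3 each). In CPM its groups did not overlap, yet its log2 fold change was only 0.16 (SE 0.0575, adjusted p = 0.221 in edgeR and 0.213 in DESeq2). Tpm1 had 92.9, 97.5 and 102 CPM in the mutants, against 94.4, 110.5 and 98.1 CPM in wild type, with a log2 fold change of -0.05 (SE 0.0773, adjusted p = 0.761 in edgeR and 0.855 in DESeq2). Tpm2, the beta tropomyosin that is prominent in slow fibres, had 21.7, 13.8 and 41.6 CPM in the mutants, against 3.28, 3.899 and 6.69 CPM in wild type. Every mutant lay well above the highest wild-type library. Tpm2 rose by 2.47 (SE 0.454, adjusted p = 0.13 in edgeR and 1.22e-07 in DESeq2), and by 1.94 without mutant replicate 3. Its share of tropomyosin TPM was 7.33% ± 3.66 in the mutants and 1.65% ± 0.758 in wild type (SD, n = 3 each).

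Nebulin and the leiomodins take part in setting thin filament length. Neb had 18.04, 13.3 and 27.8 CPM in the mutants, against 8.53, 9.88 and 10.5 CPM in wild type, and it rose by 1.03 (SE 0.261, adjusted p = 0.154 in edgeR and 0.0044 in DESeq2) with no overlap of the groups. The DESeq2 call was lost without mutant replicate 1 or mutant replicate 3. Lmod3 had 1.27, 0.423 and 2.65 CPM in the mutants, against 0, 0.0757 and 0.07604 CPM in wild type. All mutants were above all wild-type libraries, and the fitted log2 fold change of 4.71 (SE 0.957, adjusted p = 0.142 in edgeR and none given by DESeq2) rests on 4 wild-type counts. It was 3.94 without mutant replicate 3, and DESeq2 called Lmod3 without mutant replicate 1 (adjusted p = 0.00787), mutant replicate 2 (adjusted p = 9.85e-06) or wild-type replicate 2 (adjusted p = 0.00482). Lmod2, with 1 wild-type count in all, was too low for the fit and lay between 0.307 and 1.25 CPM in the mutants.

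The thick filament group, with titin and the M-band, had 13 members, of which 8 rose and 11 had groups that did not overlap. Light chains stabilise the lever arm of the myosin head. Myl1 (ENSMUSG00000061816.15, chromosome 1, 66924295 to 66945404, minus strand), the fast essential light chain, had 15.2, 7.95 and 41.6 CPM in the mutants, against 0.151, 0.492 and 3.88 CPM in wild type. Every mutant was above every wild-type library, but wild-type replicate 3 was itself well above the other wild-type libraries. Its log2 change came to 3.84 (SE 1.05, adjusted p = 0.162 in edgeR and 0.0597 in DESeq2), short of the DESeq2 threshold, and DESeq2 called it when wild-type replicate 3 was left out (log2 fold change 6.05, DESeq2 adjusted p = 1.29e-06). Without mutant replicate 3 the log2 fold change was 2.94. Mylpf (ENSMUSG00000030672.12, chromosome 7, 127208890 to 127214298, plus strand), the fast regulatory light chain, had 7.95, 4.03 and 19.2 CPM in the mutants, against 0.642, 0.871 and 2.13 CPM in wild type. It rose by 3.10 (SE 0.681, adjusted p = 0.149 in edgeR and 0.00583 in DESeq2), with 2.30 without mutant replicate 3 and 3.77 without wild-type replicate 3, and its DESeq2 call was lost without mutant replicate 1 or wild-type replicate 2. Myl4 (ENSMUSG00000061086.12, chromosome 11, 104550663 to 104595753, plus strand), the atrial and embryonic essential light chain, had 5.91, 3.69 and 11.3 CPM in the mutants, against 1.397, 2.12 and 2.62 CPM in wild type. It rose by 1.77 (SE 0.440, adjusted p = 0.154 in edgeR and 0.00183 in DESeq2), a call lost without mutant replicate 3.

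The light chains of adult slow and cardiac muscle were nearly absent. Myl2, the ventricular and slow regulatory chain, had 0.154, 0.269 and 0.265 CPM in the mutants, against 0.151, 0.0757 and 0.114 CPM in wild type. Myl3, its essential counterpart, had 0.0768, 0.0384 and 0.0756 CPM in the mutants, against 0, 0 and 0.03802 CPM in wild type. Myl7, the atrial regulatory chain, had 0 CPM in every mutant, against 0, 0 and 0.0380 CPM in wild type. A count of 0 in 1 library allows up to 3 counts, or 0.113 to 0.115 CPM at this depth, so these genes were at or near the limit of detection and were not tested. Within the essential chains Myl1 made up 81.3% ± 3.00 in the mutants and 43.2% ± 20.7 in wild type of TPM, and Myl4 18.4% ± 2.87 in the mutants and 56.6% ± 21.1 in wild type (SD, n = 3 each).

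Titin, the spring that runs from Z-disc to M-band, was read through Ttn, which had 26.9, 12.6 and 60.8 CPM in the mutants, against 1.55, 1.63 and 5.703 CPM in wild type. The groups did not overlap and mutant replicate 3 was the highest. Ttn rose by 3.50 (SE 0.730, adjusted p = 0.143 in edgeR and 0.00309 in DESeq2), with 2.74 without mutant replicate 3 and 4.39 without wild-type replicate 3, and the DESeq2 call was lost without mutant replicate 1 or 3. Mybpc1, the slow myosin binding protein C, had 20.3, 17.9 and 38.3 CPM in the mutants, against 5.44, 8.25 and 10.6 CPM in wild type. It rose by 1.66 (SE 0.350, adjusted p = 0.144 in edgeR and 5e-05 in DESeq2), lost its call without wild-type replicate 2, and supplied at least 96.6% of the TPM of its pair in each library, since fast Mybpc2 stayed at 0.307, 0.346 and 0.151 CPM in the mutants, against 0.453, 0.227 and 0.304 CPM in wild type. Mybph, a relative of myosin binding protein C, rose by 3.96 (SE 0.816, adjusted p = 0.143 in edgeR and 3.2e-05 in DESeq2) and had 1.46, 1.498 and 5.52 CPM in the mutants, against 0.0755, 0.0757 and 0.3802 CPM in wild type. Its log2 fold change was 3.03 without mutant replicate 3 and 5.14 without wild-type replicate 3. Adora1, which overlaps it on the opposite strand, averaged 36.7 CPM in the mutants and 52.3 CPM in wild type.

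The myomesins, which crosslink thick filaments at the M-band, rose in all 3 genes. Myom1 had 5.797, 4.26 and 10.02 CPM in the mutants, against 2.87, 2.57 and 2.78 CPM in wild type. Myom2 had 4.34, 2.42 and 8.73 CPM in the mutants, against 0.302, 0.379 and 0.608 CPM in wild type. Myom3 had 2.11, 1.31 and 5.59 CPM in the mutants, against 0.227, 0.379 and 0.456 CPM in wild type. In each gene the mutants were above wild type without overlap. Myom2, with a log2 fold change of 3.57 (SE 0.550, adjusted p = 0.107 in edgeR and 8.02e-09 in DESeq2), had the lowest edgeR adjusted p of all members. Myom3 rose by 3.07 (SE 0.624, adjusted p = 0.142 in edgeR and 6.56e-05 in DESeq2) and Myom1 by 1.29 (SE 0.314, adjusted p = 0.152 in edgeR and 0.00468 in DESeq2). With mutant replicate 3 left out, the values were 2.96 for Myom2, 2.26 for Myom3 and 0.88 for Myom1, and the Myom1 call was lost.

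**Figure D3:**
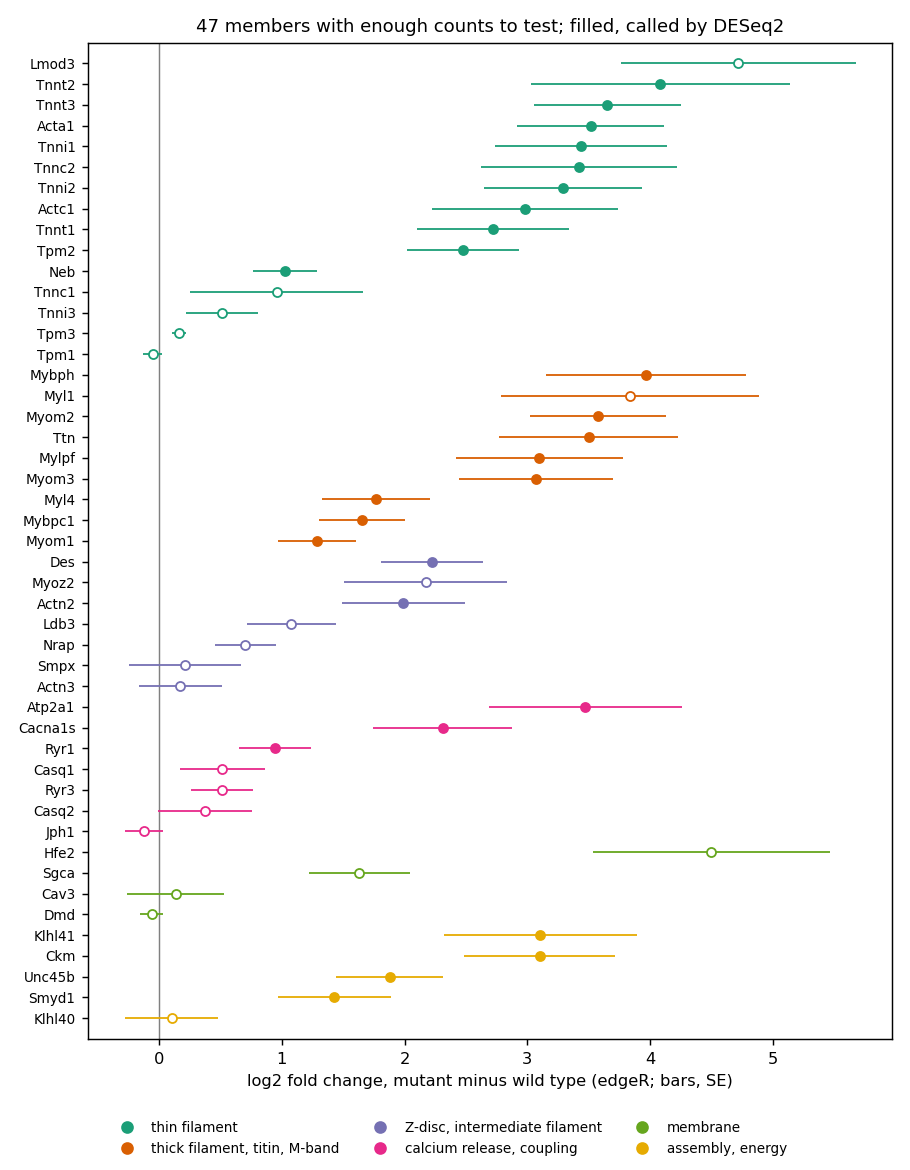
Fitted log2 fold change (mutant minus wild type, x axis) of the 47 tested members, with bars of 1 SE from edgeR, coloured by role and filled where DESeq2 called the gene. The highest values are those of Lmod3 (4.71) and Hfe2 (4.50), which rest on 4 wild-type counts each and were not called, and the called members begin at 0.95 (Ryr1), with Tpm3, Tpm1, Jph1 and Dmd close to 0.

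At the Z-disc and the intermediate filament, 2 of 11 members rose and 8 had groups that did not overlap. Des, the muscle intermediate filament desmin, had 5.99, 5.46 and 14.6 CPM in the mutants, against 1.55, 1.97 and 2.05 CPM in wild type. It rose by 2.22 (SE 0.413, adjusted p = 0.131 in edgeR and 5.57e-06 in DESeq2), or 1.62 without mutant replicate 3. Actn2, the alpha actinin that crosslinks thin filaments at the Z-disc, had 7.41, 4.302 and 17.4 CPM in the mutants, against 2.53, 1.89 and 2.89 CPM in wild type. The mutants were higher without overlap, the log2 change came to 1.99 (SE 0.503, adjusted p = 0.154 in edgeR and 0.000816 in DESeq2), it was 1.26 without mutant replicate 3, and the call was lost without wild-type replicate 2. Its fast-fibre paralogue Actn3 had 0.691, 0.499 and 0.907 CPM in the mutants, against 0.415, 0.719 and 0.722 CPM in wild type, with overlapping groups and a log2 fold change of 0.18 (SE 0.340, adjusted p = 0.816 in edgeR and none given by DESeq2). That value was -0.06 without mutant replicate 3 and -0.04 without wild-type replicate 1.

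Ldb3, a PDZ and LIM protein bound to alpha actinin, had 2.73, 2.38 and 5.93 CPM in the mutants, against 1.77, 1.78 and 1.67 CPM in wild type. Its groups were apart, with a log2 fold change of 1.08 (SE 0.362, adjusted p = 0.209 in edgeR and 0.0766 in DESeq2), which DESeq2 called only without mutant replicate 2. Smpx, a small muscle protein, had 0.998, 0.576 and 1.63 CPM in the mutants, against 0.717, 1.401 and 0.646 CPM in wild type, and its groups overlapped (log2 fold change 0.21 (SE 0.455, adjusted p = 0.839 in edgeR and 0.884 in DESeq2), and -0.23 without mutant replicate 3). Myoz2, the slow and cardiac calsarcin, had 0.691, 0.461 and 1.63 CPM in the mutants, against 0.113, 0.114 and 0.3802 CPM in wild type. Its fast relative Myoz1 had 0.192, 0.346 and 0.832 CPM in the mutants, against 0, 0.0379 and 0.07604 CPM in wild type and was too low for the fit. Both were higher in each mutant than in each wild-type library. Nrap, which takes part in myofibril assembly, lay at 0.768 to 1.13 CPM in the mutants and 0.532 to 0.604 CPM in wild type. Tcap, the titin cap, overlapped between the groups at no more than 0.378 CPM. Xirp1 reached 1.59 CPM in mutant replicate 3. Xirp2 had 0 counts in all wild-type libraries and between 0.0384 and 0.307 CPM in the mutants, where a wild-type count of 0 allows up to 0.114 CPM per library.

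Among the calcium and coupling genes, 3 of 9 rose and 5 had groups that did not overlap. Cacna1s, the voltage sensor of skeletal muscle, had 1.88, 0.999 and 3.93 CPM in the mutants, against 0.264, 0.606 and 0.494 CPM in wild type. Ryr1, the skeletal calcium release channel, had 21.2, 16.7 and 37.2 CPM in the mutants, against 10.9, 13.1 and 14.9 CPM in wild type. Atp2a1, the fast-fibre pump that returns calcium to the reticulum, had 8.64, 4.42 and 17.4 CPM in the mutants, against 0.453, 0.265 and 2.02 CPM in wild type. The sensor, the channel and the pump were each higher in all 3 mutants than in any wild-type library. Cacna1s rose by 2.31 (SE 0.564, adjusted p = 0.152 in edgeR and 0.00431 in DESeq2), Ryr1 by 0.95 (SE 0.293, adjusted p = 0.189 in edgeR and 0.0213 in DESeq2) and Atp2a1 by 3.47 (SE 0.787, adjusted p = 0.149 in edgeR and 0.0126 in DESeq2). Omitting mutant replicate 3, these were 1.65, 0.55 and 2.84, and the calls of Cacna1s and Ryr1 were lost. Without mutant replicate 1 all 3 calls were lost, and without wild-type replicate 1 or 2 those of Ryr1 and Atp2a1. The value of Atp2a1 was 4.80 without wild-type replicate 3.

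The remaining coupling genes with enough counts did not pass the test. Casq1, the fast calsequestrin that stores calcium in the reticulum, had 2.04, 1.11 and 2.495 CPM in the mutants, against 0.982, 1.29 and 1.67 CPM in wild type. Casq2, the slow and cardiac form, had 5.18, 4.03 and 10.4 CPM in the mutants, against 3.47, 5.94 and 5.703 CPM in wild type. Both overlapped between the groups, with log2 fold changes of 0.52 (SE 0.344, adjusted p = 0.454 in edgeR and 0.53 in DESeq2) and 0.38 (SE 0.382, adjusted p = 0.628 in edgeR and 0.635 in DESeq2), and that of Casq2 was -0.13 without mutant replicate 3. Ryr3, which is used in brain and in developing muscle, had 6.64, 8.72 and 6.35 CPM in the mutants, against 3.74, 6.89 and 4.56 CPM in wild type, with a log2 fold change of 0.52 (SE 0.254, adjusted p = 0.33 in edgeR and 0.275 in DESeq2) and a DESeq2 call only without wild-type replicate 2. Jph1, a junctophilin that holds the reticulum to the surface membrane, had 12.2, 15.4 and 16.3 CPM in the mutants, against 15.7, 18.4 and 13.6 CPM in wild type, and its log2 change came to -0.12 (SE 0.157, adjusted p = 0.717 in edgeR and 0.783 in DESeq2). Trdn, which ties calsequestrin to the release channel, reached 2.495 CPM in mutant replicate 3 and no more than 0.190 CPM in wild type. Cacng1, the gamma subunit of the voltage sensor, lay at 0.230 to 1.47 CPM in the mutants and 0.0755 to 0.114 CPM in wild type. Both were too low for the edgeR fit.

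Of the 4 membrane genes, 2 (Dmd and Cav3) were given an adjusted p by DESeq2 and were not called, and the other 2 (Sgca and Hfe2) were given none. Dmd, dystrophin, which links the cytoskeleton to the membrane in muscle and has shorter products in brain, had 39.3, 33.1 and 39.8 CPM in the mutants, against 37.98, 41.4 and 37.3 CPM in wild type, a log2 difference of -0.06 (SE 0.0936, adjusted p = 0.779 in edgeR and 0.856 in DESeq2). Cav3, the muscle caveolin, had 1.27, 1.04 and 2.15 CPM in the mutants, against 1.55, 0.757 and 1.75 CPM in wild type, also with overlapping groups (0.14 (SE 0.395, adjusted p = 0.882 in edgeR and 0.919 in DESeq2) on the log2 scale). Leaving out mutant replicate 3 gave -0.23 for Cav3, and leaving out mutant replicate 2 gave 0.03 for Dmd. Sgca, alpha sarcoglycan, had 0.921, 0.461 and 0.643 CPM in the mutants, against 0.151, 0.189 and 0.304 CPM in wild type. Hfe2, hemojuvelin, made in skeletal muscle and liver, had 0.806, 0.461 and 2.46 CPM in the mutants, against 0, 0.0757 and 0.07604 CPM in wild type. Both were low and apart between the groups, with log2 fold changes of 1.63 (SE 0.411, adjusted p = 0.154 in edgeR and none given by DESeq2) and 4.50 (SE 0.965, adjusted p = 0.144 in edgeR and none given by DESeq2), and the Hfe2 value rests on 4 wild-type counts. The value of Hfe2 was 3.53 without mutant replicate 3, and DESeq2 called it without mutant replicate 1 (adjusted p = 0.0078), mutant replicate 2 (adjusted p = 0.000222) or wild-type replicate 2 (adjusted p = 0.0094).

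Of the 5 assembly and energy genes, 4 rose. Ckm, muscle creatine kinase, had 4.03, 2.92 and 10.7 CPM in the mutants, against 0.415, 0.492 and 1.14 CPM in wild type. Klhl41, which stabilises nebulin, had 7.53, 3.84 and 16.8 CPM in the mutants, against 0.453, 0.454 and 2.36 CPM in wild type. Unc45b, the chaperone of the myosin head, had 4.34, 3.65 and 10.6 CPM in the mutants, against 1.55, 1.401 and 2.09 CPM in wild type. Smyd1, a methyltransferase needed for myofibril assembly, had 4.53, 2.23 and 8.54 CPM in the mutants, against 1.59, 2.16 and 1.94 CPM in wild type. In these 4 genes the mutants did not overlap wild type, and mutant replicate 3 was again the highest. The log2 fold changes were 3.10 (SE 0.615, adjusted p = 0.136 in edgeR and 5.56e-06 in DESeq2) for Ckm and 3.11 (SE 0.785, adjusted p = 0.154 in edgeR and 0.0277 in DESeq2) for Klhl41. They were 1.88 (SE 0.438, adjusted p = 0.149 in edgeR and 0.000837 in DESeq2) for Unc45b and 1.43 (SE 0.460, adjusted p = 0.198 in edgeR and 0.0312 in DESeq2) for Smyd1. Leaving out mutant replicate 3, they were 2.34, 2.38, 1.25 and 0.83, and without wild-type replicate 3 Klhl41 was at 4.36. The DESeq2 call of Smyd1 held only without mutant replicate 2, and that of Klhl41 only without mutant replicate 2 or wild-type replicate 3. Klhl40, a relative of Klhl41 that stabilises nebulin and leiomodin 3, had 1.34, 1.04 and 1.85 CPM in the mutants, against 1.93, 0.757 and 1.25 CPM in wild type, with overlapping groups and a log2 fold change of 0.10 (SE 0.378, adjusted p = 0.907 in edgeR and 0.938 in DESeq2). Its sign turned without mutant replicate 3 (-0.14) and without wild-type replicate 2 (-0.17).

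The isoform genes were then added up by the muscle type that uses them, on the TPM scale, on which genes of different length can be compared. The 10 fast genes (Myl1, Mylpf, Tnnt3, Tnni2, Tnnc2, Atp2a1, Myoz1, Casq1, Actn3 and Mybpc2) summed to 116, 68.03 and 281 TPM in the mutants, against 11.1, 16.9 and 30.3 TPM in wild type. Of these, Casq1, Actn3 and Mybpc2 overlapped between the groups in CPM. The 3 slow skeletal genes (Tnnt1, Tnni1 and Mybpc1) summed to 32.98, 25.6 and 68.3 TPM in the mutants, against 8.49, 9.99 and 14.5 TPM in wild type. The 5 genes shared by slow and cardiac muscle (Tnnc1, Myl2, Myl3, Casq2 and Myoz2) summed to 8.98, 5.66 and 17.5 TPM in the mutants, against 5.03, 9.16 and 6.83 TPM in wild type. The 5 cardiac or embryonic genes (Actc1, Tnnt2, Tnni3, Myl4 and Myl7) summed to 40.2, 22.7 and 128 TPM in the mutants, against 9.92, 9.21 and 16.1 TPM in wild type. Fast, slow skeletal and cardiac or embryonic sums were above wild type in every mutant, whereas the slow and cardiac sums overlapped.

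Averages were 155 ± 112 TPM in the mutants and 19.4 ± 9.88 TPM in wild type for the fast class (SD, n = 3 each), a ratio of 7.97. They were 42.3 ± 22.8 TPM in the mutants and 11.0 ± 3.14 TPM in wild type for the slow class, a ratio of 3.84. The slow and cardiac class had 10.7 ± 6.12 TPM in the mutants and 7.005 ± 2.07 TPM in wild type, a ratio of 1.53. The cardiac or embryonic class had 63.6 ± 56.4 TPM in the mutants and 11.7 ± 3.78 TPM in wild type, a ratio of 5.42. As log2 ratios these were 2.99, 1.94, 0.61 and 2.44, and without mutant replicate 3 they were 2.24, 1.41, 0.06 and 1.42. Leaving out the highest gene of each class gave 2.63, 2.49, 1.23 and 1.86. Of the members, DESeq2 gave an adjusted p to 7 of 10 fast genes and called 5, to 3 of 3 slow genes and called 3, to 1 of 5 slow and cardiac genes and called 0, and to 3 of 5 cardiac or embryonic genes and called 3. In 3 of the 5 slow and cardiac genes (Myl2, Myl3 and Myoz2) every mutant was above every wild-type library in CPM. The closest mutant and wild-type libraries had 4 counts each for Myl2 and 1 count each for Myl3, so library scaling alone set these apart. The classes were not tested against each other.

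The composition was more alike between libraries than the level. Fast genes made up 57.02% ± 1.38 in the mutants and 38.1% ± 6.38 in wild type of the TPM of the 4 classes (SD, n = 3 each). In single libraries the fast share was 58.5%, 55.8% and 56.8% in the mutants, against 32.1%, 37.4% and 44.8% in wild type. Mutants that differed several-fold in level thus had nearly the same fast share. The slow share was 17.1% ± 3.61 in the mutants and 22.7% ± 1.68 in wild type, and the cardiac or embryonic share was 21.6% ± 3.82 in the mutants and 24.3% ± 4.23 in wild type. The slow and cardiac share was 4.24% ± 0.605 in the mutants and 14.97% ± 5.09 in wild type, lower in every mutant than in every wild-type tumour. On protein-coding transcripts alone the fast share was 58.2% ± 1.69 in the mutants and 35.1% ± 12.1 in wild type (SD, n = 3 each).

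**Figure D4:**
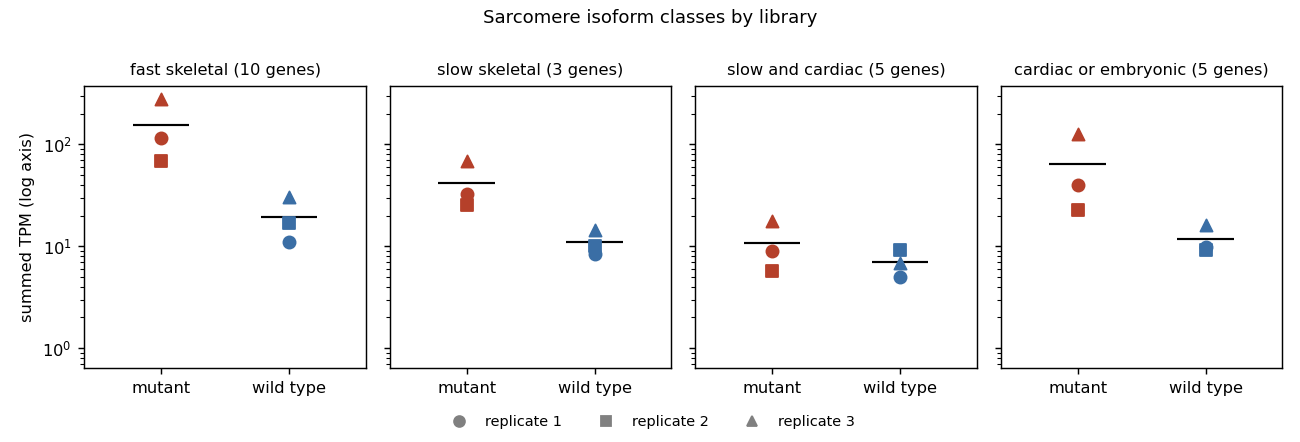
Summed TPM of the 4 isoform classes in each library on a log axis, mutants in red at left and wild type in blue at right, with symbols for the replicate number and a line at the group mean. The fast, slow and cardiac or embryonic sums of all 3 mutants lie above all wild-type libraries, and the slow and cardiac sums overlap.

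The share of a gene's counts that kallisto gave to protein-coding transcripts, rather than to retained-intron or processed ones, was read as a description. It was compared in the 41 members with at least 20 counts in each group. The share was higher in the mutant sum for 26 members and lower for 5, against 34.9% higher and 28.2% lower among the 15261 genes with a protein-coding transcript and as many counts. In 11 members it was under 80% in wild type, and in 4 it was under 80% in the mutants. An example was Myl4, at 75.1%, 67.3% and 81.9% in the mutants, against 37.5%, 31.1% and 24.4% in wild type. Myom3 was at 73.1%, 81.9% and 66.0% in the mutants, against 0%, 17.4% and 43.7% in wild type. Tnnt1 was at 95.0%, 92.7% and 95.3% in the mutants, against 84.7%, 71.7% and 80.2% in wild type. For 8 members (Myl4, Tnnt1, Tnni1, Tnni3, Tnnc1, Neb, Myom2 and Myom3) every mutant share was above every wild-type share, and for 1 (Ckm) the reverse held. Among those 15261 genes the same held for 4.26% on the higher side and for 2.58% on the lower side. No test was made of these shares, and the division between transcripts is an estimate of the counting step.

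The coding transcript with the most counts in the mutants, Myl4-202, had 89.4, 60.5 and 192 estimated counts in the mutants, against 0, 0 and 7.08 in wild type. The retained-intron transcript Myl4-208 had 33.9, 23.3 and 40.4 estimated counts in the mutants, against 16.3, 16.4 and 23.7 in wild type. Myl4-202 had counts in 1 wild-type library, and another coding transcript, Myl4-203, had 16.9, 4.15 and 35.6 estimated counts in the mutants, against 13.9, 17.4 and 1.43 in wild type. Myom2-201, which encodes the protein, had 93.8, 49.5 and 200.1 estimated counts in the mutants, against 2.24, 3.36 and 11.7 in wild type, and the retained-intron Myom2-202 had 15.8, 13.02 and 23.1 estimated counts in the mutants, against 5.52, 5.96 and 3.92 in wild type. For Myom3-201 the values were 40.3, 27.9 and 97.8 estimated counts in the mutants, against 0, 1.74 and 5.24 in wild type. Myl4 and the myomesins were picked for this after their values were seen.

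**Figure D5:**
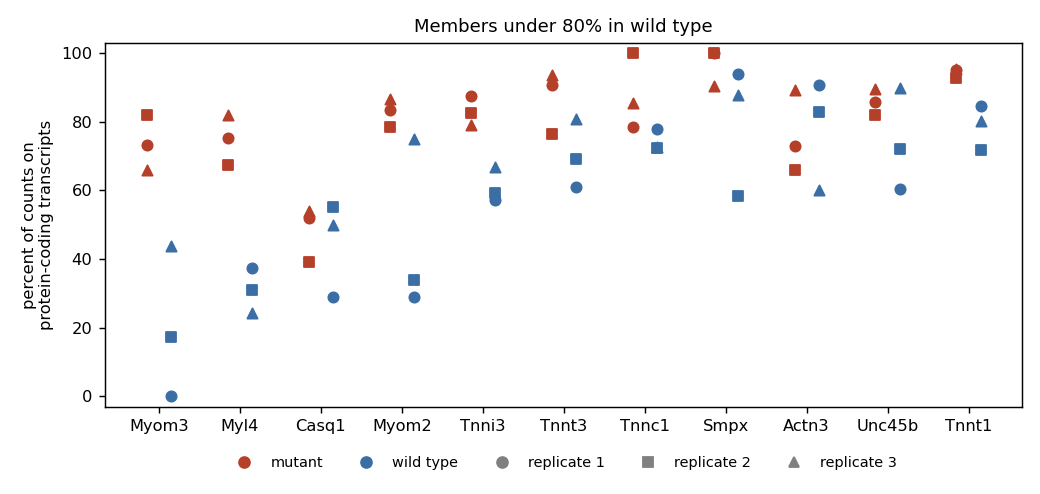
Percent of a gene's estimated counts on protein-coding transcripts, by library (symbols for the replicate number), for the 11 members under 80% in wild type, mutants in red at left and wild type in blue at right of each pair. Every mutant symbol is above every wild-type symbol for Myom3, Myl4, Myom2, Tnni3, Tnnc1 and Tnnt1, and the groups mix for Casq1, Smpx and Actn3.

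Tpm1 was not called as a gene, and values of its transcripts are given as a description. Of its 21 transcripts, the coding transcript Tpm1-205 of 1208 bases had 201, 188 and 342 estimated counts in the mutants, against 77.6, 148 and 174 in wild type. Every mutant was above every wild-type library. The same held for Tpm1-211, with 790, 741 and 781 estimated counts in the mutants, against 691, 606 and 596 in wild type, and for Tpm1-214. For Tpm1-206 and Tpm1-212 every mutant was below every wild-type library. Tpm1-209, which had the most counts in each wild-type library, had 599, 799 and 689 estimated counts in the mutants, against 771, 1307 and 941 in wild type. It was lower in every mutant except that replicate 2 lay above wild-type replicate 1. No transcript was tested, and the share of all transcripts that lie apart in this way was not counted. Among tested genes that share was 13.1% on the higher side and 11.9% on the lower. No change in transcript use is read from these values. Tpm3 was carried by Tpm3-201, which took 84.6%, 84.9% and 86.1% of the gene in the mutants and 81.3%, 82.2% and 82.8% in wild type. Tpm2 was carried by Tpm2-202, with 433, 289 and 885 estimated counts in the mutants, against 69.3, 72.02 and 128 in wild type.

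Dystrophin came mainly from the shorter Dmd-201 of 4438 bases, which took 80.03%, 72.9% and 78.3% of the gene in the mutants and 79.5%, 71.01% and 75.05% in wild type. The full-length transcript Dmd-203 of 14910 bases took 11.1%, 13.7% and 8.91% of the gene in the mutants and 12.2%, 13.5% and 13.6% in wild type, and these shares overlapped between the groups. Titin counts fell mostly on Ttn-201, with 585, 285 and 1339 estimated counts in the mutants, against 35.9, 26.8 and 129.9 in wild type. For Myl1, the leading transcript Myl1-202 had 265, 131 and 707 estimated counts in the mutants, against 0, 8.61 and 64.3 in wild type. For Tnnt3, with 27 transcripts, the leading one in the mutants, Tnnt3-218, had 41.4, 30.6 and 102.9 estimated counts in the mutants, against 0, 6.46 and 0 in wild type. The transcripts of Ldb3 also traded places between libraries of 1 group, so they are not compared.

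Other genes of the same machinery, outside the 58, were read from a list of 48 sarcomere, coupling and muscle metabolism genes. DESeq2 called 8 of them higher and 1 lower, against 3.15% and 2.48% of all genes. Of the 48, 20 had every mutant above every wild-type library and 2 every mutant below, against 13.1% and 11.9% of all tested genes. The median log2 fold change of the 36 tested was 0.28, against 1.99 over the 47 tested members and -0.01 over all tested genes. Of the 47 members, 15 passed the filter through the mutants alone, against 3 of the 36. Among genes that clear the filter in wild type alone, the median was 0.18 for this list and 1.08 for the members. One of the 4 with the highest TPM was Pdlim3, a Z-disc PDZ and LIM protein, with 324, 134 and 221 CPM in the mutants, against 24.01, 9.28 and 40.1 CPM in wild type. It rose by 3.21 (SE 0.549, adjusted p = 0.13 in edgeR and 6.56e-05 in DESeq2), and mutant replicate 1, not 3, was highest. Cacna2d1, a calcium channel subunit with a wide role in neurons, had 553, 577 and 498 CPM in the mutants, against 488, 474 and 492 CPM in wild type. Atp2a2, the pump of slow and cardiac muscle and of many other cells, had 506, 462 and 491 CPM in the mutants, against 442, 505 and 482 CPM in wild type. Fkbp1a, which binds ryanodine receptors, had 236, 236 and 240.5 CPM in the mutants, against 217, 229 and 217 CPM in wild type. Those 3 broadly expressed genes were not called.

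The sarcomere motor was read from 9 myosin heavy chain genes, of which 2 rose. Embryonic Myh3 had 36.8, 15.2 and 120.0 CPM in the mutants, against 0.755, 0.757 and 5.78 CPM in wild type, a rise of 4.56 (SE 1.04, adjusted p = 0.149 in edgeR and 0.0061 in DESeq2). Perinatal Myh8 had 20.7, 10.99 and 46.1 CPM in the mutants, against 0.3398, 0.757 and 3.19 CPM in wild type, a rise of 4.18 (SE 0.835, adjusted p = 0.139 in edgeR and 0.00294 in DESeq2). The adult fast genes were low: Myh4 had 0.576, 0.192 and 0.605 CPM in the mutants, against 0, 0.0379 and 0.266 CPM in wild type, and Myh1 had 0.0384, 0.269 and 0.416 CPM in the mutants, against 0.113, 0.0379 and 0.07604 CPM in wild type. The slow and cardiac gene Myh7 had 1.84, 1.19 and 2.004 CPM in the mutants, against 0.868, 1.25 and 0.951 CPM in wild type and was not called, and Myh7b had 10.02, 30.3 and 25.6 CPM in the mutants, against 17.1, 41.9 and 11.9 CPM in wild type. DESeq2 gave an adjusted p to 5 of the 9 heavy chain genes and called Myh3 and Myh8, both of developing muscle, while edgeR called 0. Forms of developing and adult muscle were not tested against each other.

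Of the 9 regulators of muscle formation, 2 rose. Myod1, the bHLH factor that starts the muscle programme, was already present in wild type, with 48.03, 67.5 and 71.9 CPM in the mutants, against 50.3, 53.3 and 81.5 CPM in wild type, and its log2 change came to 0.02 (SE 0.221, adjusted p = 0.975 in edgeR and 0.978 in DESeq2). Myog, which acts later in differentiation, had 7.95, 5.07 and 25.7 CPM in the mutants, against 0.189, 0.0379 and 2.36 CPM in wild type. All mutants lay above all wild-type libraries for Myog, but wild-type replicate 3 was well above the others, and the log2 change came to 3.90 (SE 1.12, adjusted p = 0.173 in edgeR and 0.0994 in DESeq2). Mef2c, a partner of the muscle bHLH factors that neurons also use, had 53.1, 58.9 and 81.1 CPM in the mutants, against 46.5, 41.6 and 52.4 CPM in wild type, with a log2 fold change of 0.46 (SE 0.167, adjusted p = 0.231 in edgeR and 0.112 in DESeq2). Mymx, a second protein of myoblast fusion, had 1.23, 1.42 and 2.38 CPM in the mutants, against 2.04, 2.04 and 1.14 CPM in wild type, with a log2 fold change of -0.05 (SE 0.340, adjusted p = 0.95 in edgeR and 0.967 in DESeq2). Pax3, a regulator of muscle and neural crest precursors, had 12.9, 6.57 and 13.4 CPM in the mutants, against 2.27, 2.61 and 2.62 CPM in wild type and rose by 2.13 (SE 0.288, adjusted p = 0.104 in edgeR and 9.67e-10 in DESeq2). Mymk, the membrane protein of myoblast fusion, rose by 3.00 (SE 0.957, adjusted p = 0.196 in edgeR and 0.0156 in DESeq2). Myf5 was at 0 in all 6 libraries, and Pax7 and Myf6 had no more than 3 counts in any library. The part of these regulators in the levels of the sarcomere genes was not tested.

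Markers of other cells that a tumour piece can hold were read beside these genes. For scale, DESeq2 called 3.15% of all genes higher and 2.48% lower, and 13.1% of the tested genes lay apart on the higher side. Of 14 smooth muscle and pericyte genes, 4 rose, and their summed level was 144 to 165 TPM in the mutants, against 110 to 127 TPM in wild type. Of 9 heart muscle genes 0 were called, and they summed to 17.8 to 22.7 TPM in the mutants and 22.4 to 35.4 TPM in wild type. In 3 of the 9 (Tnni3, Nppa and Nkx2-5) every mutant was above every wild-type library in CPM, although Tnni3 overlapped between the groups in TPM. Most of the sum was Ryr2, the cardiac and brain release channel, with 32.4, 56.1 and 38.4 CPM in the mutants, against 55.2, 102 and 56.99 CPM in wild type. Nppa, atrial natriuretic peptide, had 1.88, 1.04 and 1.06 CPM in the mutants, against 0.642, 0.681 and 0.798 CPM in wild type. Myl7 and Nppb were at or near 0 in every library, and Nkx2-5 was at 0 in wild type and at no more than 0.265 CPM in the mutants. Of 10 fibroblast and meningeal genes 1 rose and 2 fell, with sums of 215 to 249 TPM in the mutants and 287 to 297 TPM in wild type. Of 10 oligodendrocyte genes 7 fell, with sums of 396 to 452 TPM in the mutants and 537 to 1181 TPM in wild type. The part of these cells in the sarcomere result was not tested.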

How the data were processed

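RNA-seq of 3 Eed mutant and 3 wild-type medulloblastomas was analysed from transcript tables. The deposited tables hold, per the file headers, an estimated count, a TPM value and lengths for each transcript. The authors made them with kallisto 0.43.1 on GRCm38/mm10, per the submitters' processing notes. Counts were summed per gene identifier, to which the gene symbol was then attached, and rounded to whole numbers. Libraries held 26186236 to 26425111 counts, at which 3 counts are 0.113 to 0.115 CPM, and floors cover counting error only. The main test was edgeR 4.0.16 (quasi-likelihood, TMM; minimum count 10, total 15) in R 4.3.3, with DESeq2 1.42.0 and limma 3.58.1 as alternatives, each fitted over all genes with Benjamini-Hochberg adjustment at 0.05. The SE is the size of the log2 fold change divided by the square root of F. Fits without 1 library kept the genes tested in the full fit. Both tests were tested on simulated data, in which DESeq2 made false calls more often than its nominal rate, so the DESeq2 calls are the less strict of the pair. Members, lists and classes were chosen with earlier results of these data known. By rule, values in every library were given for isoform genes and for members leading their role by mean TPM, and for up to 4 genes of each other muscle list by mean TPM, with Myod1, Myog, Myh3 and Eed, while lists of other cell types are given mainly by counts and sums; other genes with values were added after their values were seen. Transcripts of Tpm1, Tpm2, Tpm3, Dmd, Ttn, Myl1, Tnnt3 and Ldb3 were described by rule. Coordinates are GENCODE M21 gene bodies on GRCm38. Promoter windows are RefSeq on GRCm38.p6, and protein sequences were not used here.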

Additional observations from a re-analysis of the deposited data

How the results depend on the processing

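The edgeR count of 0 members called stayed at 0 under 15 of 17 alternatives. The exceptions were DESeq2, with 27 members, and edgeR with the replicate number as a block, with 22. Same-numbered samples had correlations of 0.274, 0.146 and -0.222 between their deviations from the group means. Replicates 2 and 3 each share the unexplained file code with the same-numbered sample of the other group, and replicate 1 does not. The correlations cannot decide whether the numbers pair the samples, so the blocked count is given only as an alternative. The DESeq2 count of 27 lay between 18 and 31 over 12 alternatives, which is also its range without 1 library at a time. Restricting to protein-coding transcripts, an alternative chosen after seeing the data, gave 31. The median log2 fold change of the tested members was 1.99 and was 0.88 on log2(TPM + 1), where a pseudocount of 1 shrinks low genes. Without 1 library at a time it lay between 1.49 and 2.35. Over the same settings the log2 ratio of class sums was 2.24 to 3.47 for fast, 1.41 to 2.20 for slow, 0.06 to 0.92 for slow and cardiac, and 1.42 to 2.84 for cardiac or embryonic genes. Signs turned only in members that were not called. Without mutant replicate 3 the log2 fold changes were -0.11 for Tnnc1, -0.13 for Casq2, -0.056 for Actn3, -0.23 for Cav3, -0.14 for Klhl40 and -0.23 for Smpx. Actn3 was at -0.04 without wild-type replicate 1 and at -0.004 with the file code as a term. Without wild-type replicate 2 the values were 0.019 for Tpm1, -0.15 for Cav3 and -0.17 for Klhl40, and Dmd was at 0.027 without mutant replicate 2. Without 1 library at a time the highest and lowest values were 1.41 and -0.11 for Tnnc1, 0.63 and -0.13 for Casq2, 0.37 and -0.06 for Actn3, 0.019 and -0.097 for Tpm1, 0.37 and -0.23 for Cav3, 0.027 and -0.103 for Dmd, 0.49 and -0.17 for Klhl40, and 0.64 and -0.23 for Smpx. The cause was not tested. Depth limits the 11 members too low for the fit.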

Other observations

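The fast troponin genes Tnni2 and Tnnt3 share their stretch of chromosome 7 with the imprinted genes H19 and Igf2, and the genes between were read after the data had been seen. H19, an imprinted long non-coding RNA whose nearest end lies 59519 bases past Tnnt3, had 94.3, 73.3 and 264 CPM in the mutants, against 9.14, 4.96 and 29.2 CPM in wild type. Every mutant was above every wild-type library, with a log2 fold change of 3.32 (adjusted p = 0.149 in edgeR and 0.00894 in DESeq2). Igf2, a fetal growth factor, had 335, 273 and 556 CPM in the mutants, against 152, 128 and 196 CPM in wild type, and its log2 fold change was 1.29 (adjusted p = 0.144 in edgeR and 7.21e-05 in DESeq2). Mrpl23, a mitochondrial ribosomal gene in the same stretch, had 4.76, 3.19 and 4.16 CPM in the mutants, against 4.61, 2.95 and 3.08 CPM in wild type, with a log2 fold change of 0.19 (adjusted p = 0.712 in edgeR and 0.777 in DESeq2). Prr33, which overlaps Tnnt3, had 10.6, 2.57 and 11.2 CPM in the mutants, against 3.74, 1.67 and 1.901 CPM in wild type, with a log2 fold change of 1.74 (adjusted p = 0.203 in edgeR and 0.0175 in DESeq2). Lsp1, a leukocyte protein gene, had 43.2, 10.9 and 42.6 CPM in the mutants, against 14.9, 8.63 and 10.1 CPM in wild type, with a log2 fold change of 1.52 (adjusted p = 0.2 in edgeR and 0.126 in DESeq2). Gm33148 had 1.96, 1.46 and 3.18 CPM in the mutants, against 1.59, 1.44 and 1.98 CPM in wild type, with a log2 fold change of 0.40 (adjusted p = 0.525 in edgeR and 0.611 in DESeq2). No link between these genes was tested.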
